A study of Mus musculus with 2 samples.

Results

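The Kruppel-like factor genes examined here were Klf2, Klf3, Klf4, Klf5, Klf6, Klf7, Klf9, Klf10, Klf13 and Klf15. Every peak of trimethylated lysine 4 of histone H3 (H3K4me3) that overlapped 1 of these 10 genes, or the 5 kb on either side, was taken, with gene bounds from RefSeq (GRCm38.p6, the assembly that mm10 names). This gave 20 peaks of the 19265 in the authors' list. The list comes from chromatin immunoprecipitation and sequencing of 1 H3K4me3 library, titled "con", with 1 input library as background. Both are mouse neural progenitor cells from adult animals, cultured in N2 medium with EGF and bFGF. Strain, sex, genotype, passage and the number of animals behind the culture are not given in the sources used here, and the labels name no treatment. In the peak table's header the name of the H3K4me3 library begins with EGF where the sample title has "con", and the labels were followed. With 1 library there is no error between cultures, no test and no comparison of conditions, so intervals below cover counting error only.

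Kruppel-like factors are transcription factors that bind GC-rich and CACCC-containing DNA through a set of zinc fingers at their C-terminal end. The part of the protein before the fingers differs between members and recruits either coactivators or corepressors. Klf2, Klf4, Klf5, Klf6 and Klf7 are best known as activators that can recruit acetyltransferases. Klf3 recruits the corepressor CtBP, and Klf9, Klf10 and Klf13 recruit Sin3A. Klf15 is treated apart. In neurons, Klf4 and Klf9 are known to restrain axon growth, and Klf6 and Klf7 to promote it. H3K4me3 lies mainly over the starts of active and poised genes, though 9 of the 20 member peaks lay away from a listed start. A peak does not measure RNA.

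The authors kept 18156769 tags of H3K4me3 and 17831241 of input. As a check of the label, a peak lay at the start of 9 of 10 neural progenitor markers (Sox2, Nes and others), against 57.5% of 21887 protein-coding genes. Of the 5 markers each of neurons, astrocytes, oligodendrocytes, microglia and endothelium, 1 in each list had such a peak. Their part in the values below was not tested.

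Each of the 10 genes carried the mark, at its start and mostly over several kilobases. A peak lay in the gene or its 5 kb flanks at 10 of 10 members, against 64.1% of 21887 protein-coding genes. It lay within 1 kb of the annotated start at 10 of 10 as well, against 57.5% of coding genes. The members are a chosen list, so the difference was not tested. For Klf5 and Klf10 the tables used here list no start or strand, and a peak within 1 kb of either gene end was counted, as for the other coding genes without a listed start. Fold enrichment, the authors' own value for each peak, is over a background taken from the input. It reached 30 or more at 8 of 10 members, against 48.1% of coding genes. The latter is 10534 of all 21887 coding genes, of which 14029 had any peak in the gene or its flanks. It therefore also counts genes without a peak, of which the members include none. The member peaks together held 7870 tags, which is 0.164% of the tags in all peaks (exact 95% interval 0.160% to 0.167%). Of these, 89.6% lay in the strongest start peak of each gene.

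**Figure D1:**
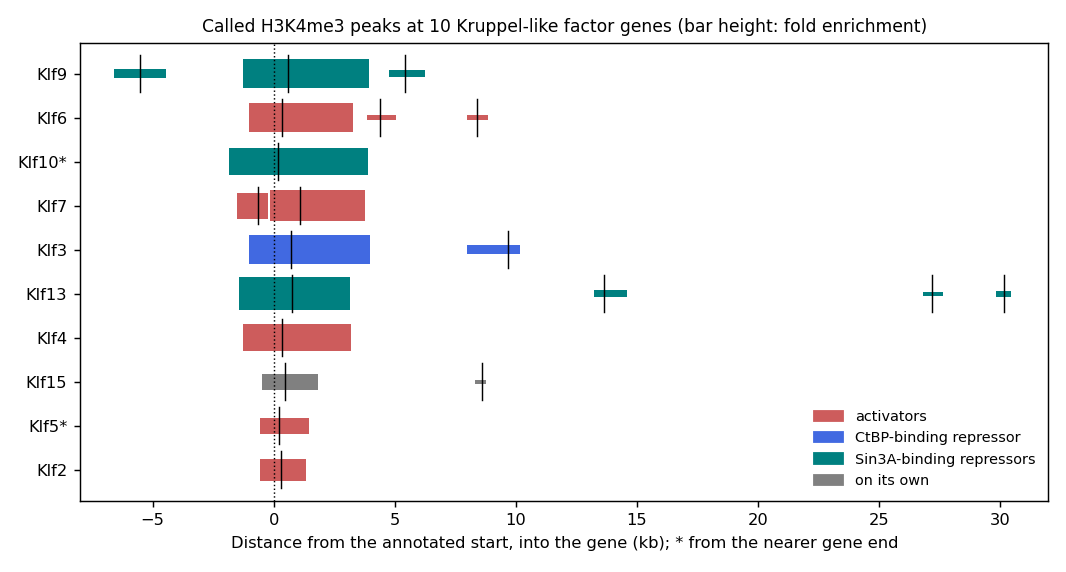
Called H3K4me3 peaks at the 10 genes, drawn by distance from the annotated start into the gene in kb (for genes with an asterisk, from the nearer gene end). Bar height is proportional to fold enrichment, black ticks are summits, and colours give the cofactor group; every gene has a peak over the start, and 9 weaker peaks lie away from it.

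Among the activators, Klf6 and Klf7 had wide and dense marks, Klf4 a wide one, and Klf2 and Klf5 narrower ones. Klf6, an early-response factor that promotes axon growth, had its start peak at chr13:5860448-5864754. It was 4307 bp long with 886 tags and a fold enrichment of 50.6. A further 2 weak peaks lay inside Klf6, with 54 and 39 tags and fold enrichments of 10.1 and 8.15. Together the peaks covered 59.8% of the gene.

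Klf4, a factor used to reprogram cells to pluripotency, had 1 peak of 4442 bp (chr4:55529284-55533725). It held 743 tags at a fold enrichment of 47.7, and covered 59.8% of this short gene. The end of a long non-coding RNA gene, Gm12506, which is listed on the opposite strand, lay inside the same peak, so the peak may belong to either gene. Klf2, which is known for its role in endothelium and in the quiescence of T cells, had a peak of 1900 bp (chr8:72318506-72320405). That peak held 302 tags at a fold enrichment of 38.3 and covered 51.8% of the gene. Klf5, a factor of proliferating epithelium, had 2005 bp (chr14:99298142-99300146) with 240 tags, the fewest of the 10 start peaks, and a fold enrichment of 28.2.

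Klf7, a factor of developing neurons, was the only member with 2 peaks within 1 kb of its listed start. The stronger peak (chr1:64117640-64121560) held 803 tags over 3921 bp at a fold enrichment of 53.1. It reached 3749 bp into the gene and 171 bp before the start. The other (chr1:64121638-64122910) held 157 tags over 1273 bp at a fold enrichment of 45.6. It covered the outer end of the gene (64122345), and the listed start (64121389) lies inside that end. Between the 2 peaks lay 77 bp with no called peak, upstream of the listed start and of the bases that the stronger peak covers. The bases before the start, from RefSeq (GRCm38.p6, chr1:64121390-64121639, minus strand), are printed to show this break, and the capitals mark the 77 bp between the peaks:
Klf7: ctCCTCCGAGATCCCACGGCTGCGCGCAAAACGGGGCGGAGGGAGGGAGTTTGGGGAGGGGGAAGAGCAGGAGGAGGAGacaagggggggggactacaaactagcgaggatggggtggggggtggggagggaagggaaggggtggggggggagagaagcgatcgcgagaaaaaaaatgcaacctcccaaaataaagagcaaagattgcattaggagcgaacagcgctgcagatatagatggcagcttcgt
In this stretch 38 of 77 bases were G and 15 were C, with 6 CpG dinucleotides. An end of the non-coding RNA gene Gm35880, listed on the other strand, lay in the same gap. This sequence was chosen after the peaks were seen. Joined across the gap, the region at Klf7 was 5271 bp wide.

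The repressors that bind CtBP or Sin3A had start peaks of at least 4599 bp. Klf3 had its start peak at chr5:64802506-64807502, with 836 tags over 4997 bp and a fold enrichment of 51.4. The downstream end of the coding gene Gm38457, listed on the opposite strand, lay within 1 kb of it. The peak lay inside Gm38457, which runs from 64802370 to 64809180. A second peak inside Klf3, of 2179 bp, held 151 tags at a fold enrichment of 15.0. Klf10, first described as a gene induced by TGF-beta, had the longest single peak of the 10 genes (chr15:38296800-38302575, 5776 bp). It also held the most tags, 1049, at a fold enrichment of 47.7. It contained an end of the non-coding RNA gene Gm35248, which overlaps Klf10.

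Klf9, a target of thyroid hormone and glucocorticoid receptors that restrains axon growth, had 3 peaks. The start peak (chr19:23139940-23145160) held 940 tags over 5221 bp at a fold enrichment of 49.9. A weak peak followed inside the gene, with 71 tags over 1494 bp and a fold enrichment of 12.4. The other peak lay 4451 bp outside the gene, with 204 tags and a fold enrichment of 16.3, over the non-coding RNA gene 2410080I02Rik. It is the only member peak that depended on the 5 kb flanks. The nearest peak beyond the flanks of any member lay 8188 bp from Klf7, with 51 tags and a fold enrichment of 11.6.

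Klf13, a factor of lymphocytes and heart, had 4 peaks and the strongest start peak of the 10 genes. That peak (chr7:63935753-63940351) held 983 tags over 4599 bp at a fold enrichment of 57.9. The other 3 lay inside the gene, with summits 13636, 27197 and 30179 bp from the start. They held 65, 34 and 26 tags at fold enrichments of 12.3, 7.59 and 10.1. The gene table gives no exons, so the position of these peaks in exons or introns is not given here.

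Klf15, a glucocorticoid target that regulates glucose and amino acid metabolism, had the lowest fold enrichment of the 10 start peaks, 27.5. Its start peak (chr6:90462085-90464400) held 270 tags over 2316 bp. It lies at the listed start and over 1 kb from the outer end of the gene in the table, so it is not counted when gene ends replace listed starts. A peak of 17 tags over 478 bp inside Klf15 had a fold enrichment of 6.51 and a false discovery rate of 0.28%. It was the weakest of the 20 member peaks.

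Length and count both enter the tag number, so levels were compared between genes as tags per kb of the called peak. The density was highest at Klf13 (214 tags per kb, exact 95% Poisson interval 201 to 228). Klf6 had 206 (192 to 220) and Klf7 205 (191 to 219). Klf10 followed with 182 (171 to 193) and Klf9 with 180 (169 to 192), then Klf3 and Klf4 with 167 each. At Klf2 it was 159 (142 to 178), at Klf5 120 (105 to 136) and at Klf15 117 (103 to 131). Neighbours in this order had overlapping intervals, with 1 exception, the step from Klf2 to Klf5. For called peaks, the intervals of Klf5 and Klf15 lay below those of the other 8 members. Over joined regions this separation was lost, as Klf9 had 134 tags per kb, inside the interval of Klf5, and Klf6 had 154. The median over all 12577 coding genes with a start peak was 152 tags per kb, with quartiles of 119 and 176. The authors kept 1 tag per position and strand, and the member start peaks used between 5.83% and 10.7% of these positions.

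**Figure D2:**
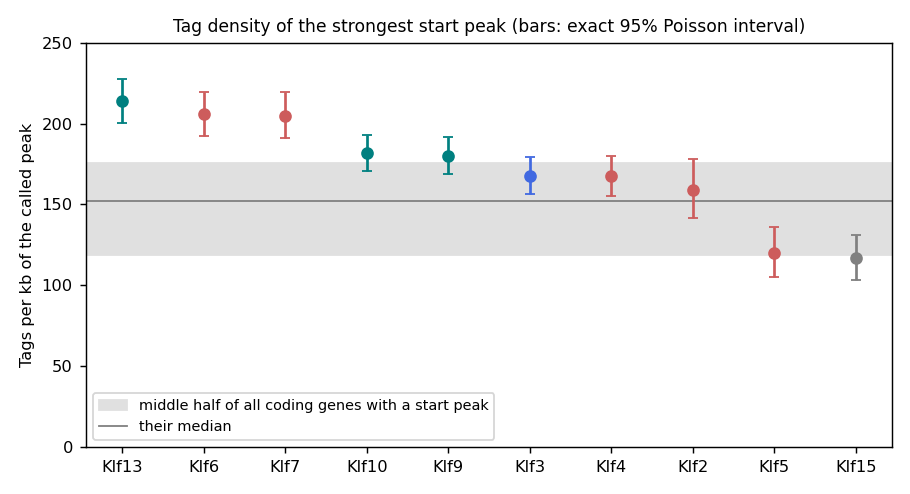
Tags per kb in the strongest start peak of each of the 10 genes, with exact 95% Poisson intervals of counting error, in the colours of the cofactor groups (red activators, blue CtBP, teal Sin3A, grey Klf15). The grey band spans the quartiles of all coding genes with a start peak, 119 to 176; the points of Klf13, Klf6, Klf7, Klf10 and Klf9 lie above it, with the intervals of Klf10 and Klf9 reaching into it, and Klf5 and Klf15 lie at its lower edge.

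The members split by width into a group of 7 wide marks and a group of 3 narrower ones. Peaks up to 1 kb apart were joined into regions for this purpose. Klf9 lay under 7523 bp, Klf6 under 6112 bp, Klf10 under 5776 bp, Klf7 under 5271 bp and Klf3 under 4997 bp. Klf13 had 4599 bp and Klf4 4442 bp. The remaining genes had far narrower regions, with 2316 bp at Klf15, 2005 bp at Klf5 and 1900 bp at Klf2. These 3 widths lay between the quartiles of coding genes with a start peak, 1743 and 2906 bp. The median of the 10 was 4798 bp, against 2238 bp over coding genes with a start peak. Regions were called broad when they were in the widest 5% of those at coding starts, which meant at least 4608 bp. By this bound 5 of 10 members lay in a broad region, against 5.46% of coding genes with a start peak. Klf13 missed the bound by under 10 bp. Without joining the count was 6, against 5.50% of coding genes with a start peak, and for the widest 10% it was 7, against 11.1%. With a joining gap of 3 kb, which raised the bound to 5668 bp, the count was 3 (Klf6, Klf9 and Klf10), against 6.41% of coding genes with a start peak.

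Fold enrichment followed the same split. The 7 wide members had values between 47.7 (Klf10) and 57.9 (Klf13), and the narrower ones between 27.5 (Klf15) and 38.3 (Klf2). The median of the 10 start peaks was 48.8, against 39.1 over coding genes with a start peak. Of the coding genes with a start peak, 97.5% had a lower fold than Klf13, 46.4% a lower one than Klf2 and 20.7% a lower one than Klf15. By width, 99.1% of them had a narrower region than Klf9 and 33.3% a narrower one than Klf2. The cofactor groups overlapped in fold: the activators ran from 28.2 to 53.1 and the Sin3A-binding repressors from 47.7 to 57.9.

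**Figure D3:**
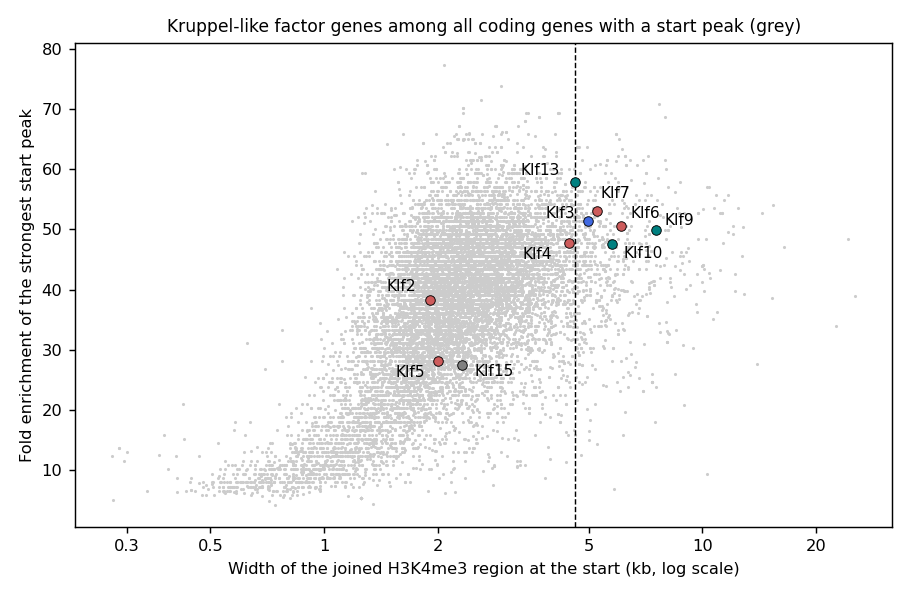
Width of the joined region in kb (log axis) against fold enrichment of the strongest start peak, with 12577 coding genes in grey and the 10 members in the colours of their cofactor groups (red activators, blue CtBP, teal Sin3A, grey Klf15). The dashed line is the broad bound of 4608 bp; 5 members lie right of it, Klf13 almost on it, and Klf2, Klf5 and Klf15 lie near 2 kb.

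The mark lay mostly downstream of the start, as at coding genes in general. At the 8 members with a listed start, the summit of the strongest peak lay after the start in 8 of 8. This compares with 81.0% of 8026 coding genes with 1 listed start and a start peak, and the difference was not tested. The weaker start peak of Klf7, with a fold of 45.6, had its summit before the start, at -665 bp. Distances ran from 292 bp at Klf2 to 1092 bp at Klf7, with a median of 527.5 bp, against 210 bp over those coding genes. For Klf7 and Klf15 the listed start lies inside the outer end of the gene. The peaks reached a median of 3228 bp into the gene and 1028 bp before it, against 1290 and 796 bp over coding genes. At Klf5 and Klf10 the summit lay 203 and 180 bp inside the marked gene end.

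Peaks away from the start were weak. They lay in the gene or flanks of 5 of 10 members (Klf3, Klf6, Klf9, Klf13 and Klf15), against 26.2% of all coding genes. This share is 5730 of 21887 coding genes, of which only 14029 had any peak, as all 10 members did. The 9 peaks away from the start had fold enrichments between 6.51 and 16.3, with a median of 10.1, and between 17 and 204 tags. A start peak with no end of another gene within 1 kb was found at 6 of 10 members (Klf2, Klf5, Klf6, Klf9, Klf13 and Klf15), against 35.3% of coding genes. The 35.3% is a share of all 21887 coding genes, including those without a start peak. Among the 12577 coding genes with a start peak, which all 10 members had, 7724 had such an unshared peak. The difference from 35.3% therefore shows no excess among the members. At Klf3, Klf4, Klf7 and Klf10 the mark could belong in part to a neighbour, and its share was not tested. For Klf3 the nearby end was the downstream end of Gm38457.

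Promoter sequences, from 250 bases before to 50 after the start, were given for 8 of the 10 members (RefSeq, GRCm38.p6). The bases before the start are printed for Klf9 (widest region, chr19:23140976-23141225, plus strand), Klf13 (highest fold, chr7:63938916-63939165, minus strand) and Klf15 (lowest fold, chr6:90462326-90462575, plus strand). Capitals mark the GC box GGGCGG and the CACCC box, the letters that Sp and Kruppel-like factors are known to bind, on either strand; adjoining matches run together:
Klf9: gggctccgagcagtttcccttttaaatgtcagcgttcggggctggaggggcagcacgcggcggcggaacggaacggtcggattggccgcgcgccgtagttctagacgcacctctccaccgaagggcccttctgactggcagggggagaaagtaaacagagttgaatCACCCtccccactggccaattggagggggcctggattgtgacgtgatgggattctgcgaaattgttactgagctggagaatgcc
Klf13: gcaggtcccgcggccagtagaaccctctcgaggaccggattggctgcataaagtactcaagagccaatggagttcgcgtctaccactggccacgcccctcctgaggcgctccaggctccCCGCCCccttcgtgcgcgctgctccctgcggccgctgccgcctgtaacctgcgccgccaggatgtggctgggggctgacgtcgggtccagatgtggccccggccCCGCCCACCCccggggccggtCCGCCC
Klf15: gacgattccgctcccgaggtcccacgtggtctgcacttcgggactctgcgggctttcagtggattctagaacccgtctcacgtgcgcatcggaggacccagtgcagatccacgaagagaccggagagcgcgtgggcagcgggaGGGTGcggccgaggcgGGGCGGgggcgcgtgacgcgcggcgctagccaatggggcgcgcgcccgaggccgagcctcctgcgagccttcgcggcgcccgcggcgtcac
These 250 bases hold 18 CpG dinucleotides at Klf9, 24 at Klf13 and 37 at Klf15. Klf13 has 3 GC boxes and 1 CACCC box, Klf15 has 1 of each, and Klf9 has 1 CACCC box and no GC box.

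Most member promoters were rich in CpG dinucleotides. Over the whole promoter sequence they held between 16 (Klf7) and 47 (Klf15) CpG dinucleotides with a median of 30.5, against a median of 7 and quartiles of 3 and 20 over 32851 promoters in the table. All members except Klf7 lay above the upper quartile. The 32851 promoters include those of genes without a start peak, of which the 8 members include none. Promoters with a start peak were not counted on their own, and the difference was not tested. The CpG count did not order the genes by their mark. Klf15, with the most CpG, had the lowest fold enrichment (27.5), and Klf7, with the fewest, had the second highest (53.1). Both promoters are those of listed starts that lie inside the outer end of the gene. Klf2 and Klf13, with 32 CpG each, had folds of 38.3 and 57.9.

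**Figure D4:**
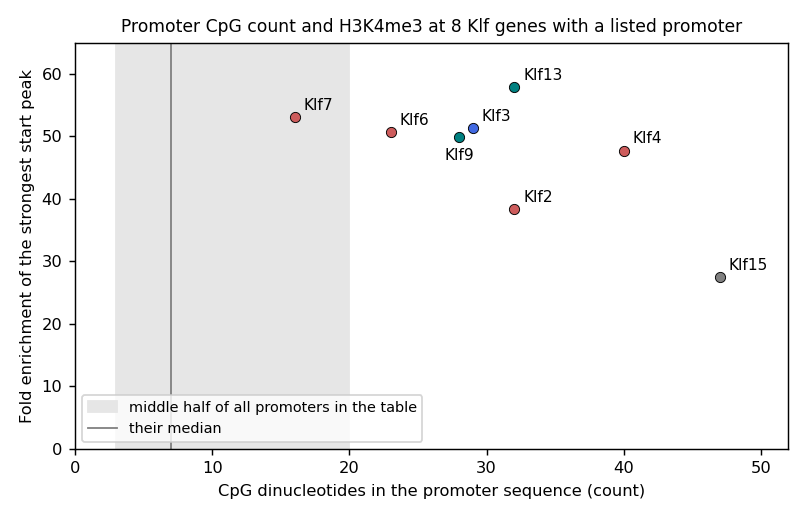
CpG dinucleotides in the promoter sequence against the fold enrichment of the strongest start peak, for the 8 members with a listed promoter, in the colours of their cofactor groups (red activators, blue CtBP, teal Sin3A, grey Klf15). The grey band spans the quartiles of 32851 promoters, 3 to 20; Klf15 lies at 47 CpG with the lowest fold, and Klf7 at 16 with a fold of 53.1.

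GC boxes (GGGCGG, both strands) were found in 7 of the 8 member promoters, against 35.7% of all promoters in the table, and Klf9 was the member without one. CACCC, on both strands, was found in 6 of 8, against 57.5%, and Klf3 held 5 of these boxes and 6 GC boxes. The E-box CACGTG was found in 3 (Klf4, Klf6 and Klf15), against 7.15%. No member promoter held TATAAA (13.6% of all promoters), TGACGTCA (1.79%), or a CArG box, the sequence bound by serum response factor (1.63%). These are matches of letters in a short window and not measured sites. The shares of all promoters also count genes without a start peak, of which the 8 members include none. The differences were not tested.

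Kruppel-like factor genes outside the list ranged from no called peak to a start peak of 3605 bp. Of 7 such genes in the gene table, 4 had a peak at the start, read against the 57.5% of coding genes. Klf11, the closest relative of Klf10, had a fold enrichment of 44.1 over 1990 bp, and Klf16 had 37.6 over 3605 bp. Klf1, the regulator of adult globin genes in red cells, had 23.3 over 1624 bp, and Klf8, on the X chromosome, had 18.8 over 1117 bp at 1 of its 2 listed starts and 15.9 at the other. Klf12 had no peak at its listed start and a peak of 4134 bp with a fold of 23.9 at an end of the gene. Klf14 and Klf17 had no called peak in the gene or its 5 kb flanks. None of the 7 had a broad region at a start, and the widest there was at Klf16.

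The Sp genes encode zinc finger proteins of the same superfamily that bind GC boxes. Of these, 7 of 9 had a peak at the start, against 57.5% of coding genes, and the difference was not tested. Their fold enrichments ran from 6.27 to 57.9. Sp4 had 57.9 over 3016 bp, Sp3 49.96 over 4777 bp, Sp1 41.95 over 1353 bp, Sp9 33.99 over 3452 bp and Sp2 26.5 over 2447 bp. Sp5 had a weak start peak (12.3), and Sp7, the osteoblast regulator, had no peak in the gene or its flanks. Sp6 has no listed start, and its counted peak (6.27, 21 tags) lay outside the gene, within 1 kb of an end. Its other peaks had folds of 23.6 inside the gene and 43.4 in the flank. Sp8 had no peak at a listed start and a peak of 40 tags in its flank (fold 10.7). Sp3 was the 1 Sp gene in a broad region.

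**Figure D5:**
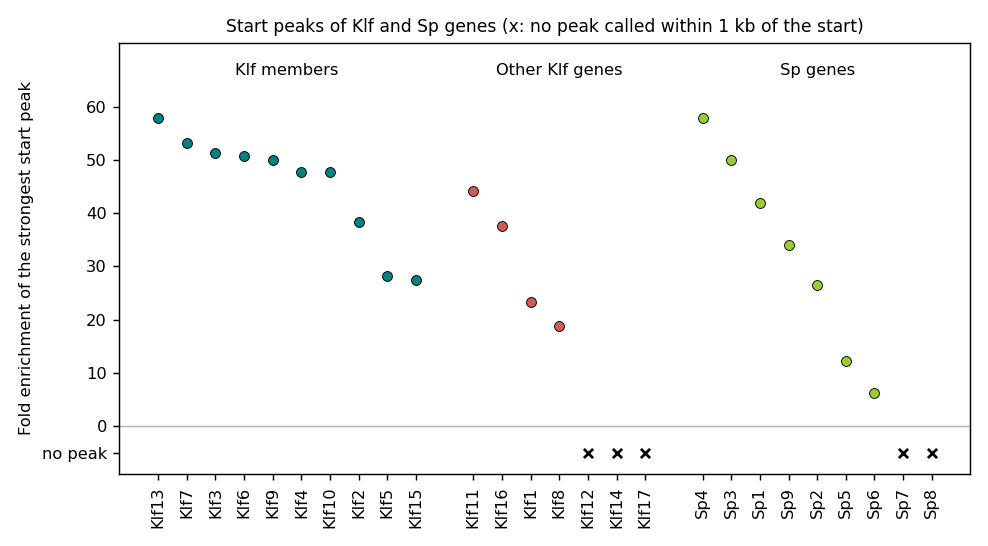
Fold enrichment of the strongest start peak at the 10 Klf members, 7 other Klf genes and 9 Sp genes, each group in descending order; crosses in the row marked "no peak" are genes with no called peak within 1 kb of the start. The members lie between 27.5 and 57.9, the other marked Klf genes between 18.8 and 44.1, and the marked Sp genes between 6.27 and 57.9.

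Genes for the partners of Kruppel-like factors were marked as well. Of 10 cofactor genes 9 had a peak at the start, against the 57.5% of coding genes. The highest folds were at Sin3a (61.5 over 6984 bp), the corepressor of Klf9, Klf10 and Klf13, and at Ctbp1 (54.2 over 2666 bp), a corepressor of Klf3. Ctbp2 had no peak at its listed starts, and its strongest peak in the gene or flanks had a fold of 49.9. Among 16 regulators known to act upstream of Kruppel-like factor genes, 15 had a peak at the start, against the same 57.5%. Both lists were chosen, so neither difference was tested. The highest folds among the 16 were at Srf (57.1 over 4879 bp), the serum response factor, and Thra (56.4 over 5056 bp), a thyroid hormone receptor that induces Klf9. No peak lay at an end of Nr3c1, the glucocorticoid receptor gene, whose strongest peak in the gene or flanks had a fold of 52.1. The median start fold was 44.8 over the cofactor genes and 41.8 over the upstream genes.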

How the data were processed

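The authors' deposited peak list of 1 H3K4me3 library was used, and the input enters it only as background. Per the file headers, the caller was MACS 1.4.2, run with a band width of 200 bp, a p cutoff of 1e-05 and 1 tag kept for each position. MACS2 2.1.0 and the build mm10 are named in the submitters' processing notes. No source used here names an aligner. Each peak carries, as deposited, a raw tag count, a fold enrichment over the input (a ratio), a percent false discovery rate and a score, 10 times the negative log10 p. The score stood at exactly 3100 for 3926 peaks, 7 member start peaks among them, so it was not used to rank. The highest false discovery rate was 0.32%, and the weakest listed peak held 13 tags, so a gene without a peak has none called at this depth.

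Peaks were joined to RefSeq genes (GRCm38.p6) by an overlap of 1 bp with the gene plus 5 kb, and with 1 kb on either side of listed starts. Listed starts come from the RefSeq promoter table, which covered 17492 of 21887 coding genes; for the others both gene ends were used. The assignment was tested on simulated peaks. Peaks 1 kb or less apart were joined. Intervals are exact (Poisson or Clopper-Pearson, 95%) and cover counting error only; tags are not independent molecules. Python 3.11.15, pandas 2.3.3 and SciPy 1.17.1 were used.

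The members, gene lists and alternatives were chosen with earlier results of these data known. Values were named by 1 rule: all members, all other Klf and Sp genes, and in the cofactor and upstream lists the genes without a start peak and the 2 with the highest fold. Klf18 is not in the gene table and is not reported here.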

Additional observations from a re-analysis of the deposited data

How the results depend on the processing

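A peak at the gene and at the start was found at 10 of 10 members under each planned window, threshold and overlap rule. The false discovery rate limit of 1% could remove no peak, since the highest rate in the list was 0.32%. Under alternatives chosen after the data were seen, 9 members had a peak when gene ends replaced listed starts, and 6 when peaks near an end of another gene were left out. The number of member peaks ran from 18 to 21. The broad count was 6 without joining (5.50% of coding genes with a start peak), 3 with a gap of 3 kb (6.41%) and 7 for the widest 10% (11.1%). Without joining, the median width was 4374.5 bp. The median fold was 47.7 with the peak whose summit lies nearest the start, which at Klf7 is the weaker of its 2 peaks, although the stronger one covers the start. The median tag density was 163 per kb over joined regions, where Klf9 moved from the fifth place to the eighth. Measured from the midpoint in place of the summit, the median distance from the start was 997 bp, against 402 bp over the 10 members. In the 100 bases before the start, 4 of 8 members held a GC box, against 24.7% of all promoters, and 1 an E-box, against 3.17%. Both shares also count promoters of genes without a start peak. Among the values compared, only distances from the start could change sign, and none did between summit and midpoint. Distance was not measured with the peak whose summit lies nearest the start, which at Klf7 has its summit at -665 bp. No paired analysis was possible because there is 1 H3K4me3 library and no replicate, and no replicate could be left out. Depth limits the order by tag density, since the 95% Poisson intervals of neighbours overlapped at each step but 1.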
